A study of Mus musculus with 6 samples.

Results

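Sox9 and the long intergenic RNA gene 2610035D17Rik were described together with the DNA that lies within 1 Mb of the Sox9 transcript start on mouse chromosome 11. The rule was positional and used no strength of the peaks, but it placed Sox9 VC peaks with a displacement measured from the tags. It took the 2 genes and every deposited ChIP-seq peak whose summit lay in this span of 2 Mb, which gave 52 of the 29742 peaks in the 3 deposited lists. Of these, 14 of 2815 came from the list of Bapx1 in the vertebral column (Bapx1 VC), 18 of 3722 from the list of Sox9 in the vertebral column (Sox9 VC) and 20 of 23205 from the list of Bapx1 in NIH3T3 cells (Bapx1 3T3). In mm9, the assembly of the Bapx1 lists, Sox9 runs on the forward strand from its start at chr11:112643538 to 112649074. 2610035D17Rik is transcribed on the reverse strand over 158 kb, from chr11:113063152 down to 112905209, so that its start lies 420 kb downstream of that of Sox9.

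The ChIP-seq part of the study comprised 6 libraries, 1 for each condition. They concerned binding of both factors in the developing spine, and of Bapx1 also in NIH3T3 cells. Bapx1 VC came from E12.5 embryos of strain CD1 in which Bapx1 carried an S-peptide at its own locus. Its control, S-peptide wildtype VC, was the same antibody on vertebral columns of wild type CD1 embryos without a tag. Sox9 VC was an antibody against native Sox9 on E12.5 CD1 embryos, with IgG VC as its control. For both of these libraries the labels give vertebral column and limb as the tissue. Bapx1 3T3 was V5-tagged Bapx1 overexpressed in NIH3T3 cells, a mouse fibroblast line, pulled down with a V5 antibody. Its control, V5 3T3, used the same antibody, and its labels speak of an empty vector and also of wild type cells. Vertebral columns of many embryos were pooled for the Bapx1 pair, so that no embryo was measured alone. Binding in all cells of a tissue is averaged, and fewer bound cells cannot be told apart from weaker binding per cell. With 1 library for each condition there was no spread between replicates, and each test compares 2 libraries and not 2 conditions.

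Sox9 encodes a transcription factor with an HMG box that chondrocytes need in order to form and to switch on cartilage matrix genes. It lies in a gene desert, and its expression in different tissues is known to depend on elements far from the gene on both sides. Bapx1, also called Nkx3-2, is a homeodomain protein of the sclerotome and of early cartilage, known mainly as a repressor.

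The sequences that carry the findings are shown here, all from the forward strand of mm9 unless stated otherwise. Capitals mark the Bapx1 words TGAGTG and TAAGTG and the Sox words, NNCAANG with A or T at each N, on either strand. No word of one set is contained in a word of the other. The first is the oligonucleotide that the study placed in a luciferase assay for an intronic site of 2610035D17Rik, at chr11:113055628-113055663 on the reverse strand, with 1 Bapx1 word:
Tested intronic site: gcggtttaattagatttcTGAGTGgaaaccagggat
The next 3 come from the sites where peaks of these lists overlapped, at chr11:111663168-111663293, chr11:113049719-113049881 and chr11:113082944-113083206. The first holds the Bapx1 VC summit and ends short of the corrected Sox9 VC summit at chr11:111663316. The others span the Bapx1 VC summit and a Sox9 VC summit (at the last, the right one of 2 Sox9 VC summits):
Shared site upstream: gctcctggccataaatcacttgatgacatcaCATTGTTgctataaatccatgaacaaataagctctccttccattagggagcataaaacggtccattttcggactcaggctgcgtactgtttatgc
Shared site in 2610035D17Rik: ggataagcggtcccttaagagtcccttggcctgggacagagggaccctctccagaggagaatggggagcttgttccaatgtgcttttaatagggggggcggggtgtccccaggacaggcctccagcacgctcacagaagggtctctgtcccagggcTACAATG
Shared site beyond 2610035D17Rik: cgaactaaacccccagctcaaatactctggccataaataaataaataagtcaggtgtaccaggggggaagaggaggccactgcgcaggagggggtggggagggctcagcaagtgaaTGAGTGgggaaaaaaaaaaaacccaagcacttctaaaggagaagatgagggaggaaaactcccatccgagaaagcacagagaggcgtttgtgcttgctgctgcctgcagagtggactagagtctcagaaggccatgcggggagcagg
The next, at chr11:113063234-113063334, surrounds the summit of the Bapx1 VC peak at the start of 2610035D17Rik and holds none of these words:
Start of 2610035D17Rik: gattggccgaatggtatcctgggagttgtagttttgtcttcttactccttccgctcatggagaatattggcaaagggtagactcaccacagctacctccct
The last 2 surround the Bapx1 3T3 summits with the smallest p in the list of this span, at chr11:113245546-113245646 with 6 Bapx1 words and at chr11:112862400-112862500 with 0:
Bapx1 3T3 site in Slc39a11: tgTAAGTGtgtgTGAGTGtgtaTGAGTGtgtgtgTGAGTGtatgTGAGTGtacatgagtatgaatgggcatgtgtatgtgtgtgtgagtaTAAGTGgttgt
Bapx1 3T3 site between the genes: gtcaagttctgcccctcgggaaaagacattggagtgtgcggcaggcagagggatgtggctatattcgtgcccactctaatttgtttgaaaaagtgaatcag

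The positions of the Sox9 pair were displaced against mm9 and had to be corrected before any comparison with a gene or a Bapx1 peak. When the tag starts of the Sox9 pair were moved along the chromosome, a mean of 485 coincided with tag starts of the Bapx1 VC pair at a displacement of 45224 bp, against a median of 350 at displacements further than 500 bp away, where the highest was 360. The coincidence stayed above the middle of its height from 45173 to 45277 bp. All 6 windows of 500 kb and all 16 windows of 200 kb around Sox9 gave displacements of 45200 to 45250 bp, although in 1 of the 16 the covariance of binned tags at its maximum was 1.36 times the next, below the 1.5 set for a clear displacement. Positions of Sox9 VC peaks below are deposited positions plus 45224 bp, and are uncertain by about the width of that coincidence.

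**Figure D1:**
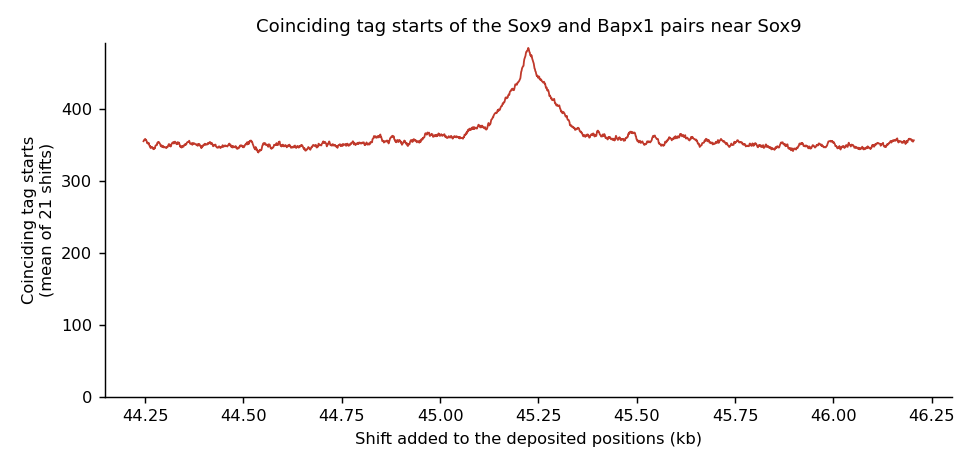
Number of tag starts of the Sox9 pair that coincide with tag starts of the Bapx1 VC pair within 1 Mb of Sox9 (vertical axis, mean of 21 neighbouring shifts) against the shift added to the deposited positions (horizontal axis, kb). A single maximum of 485 stands at 45.224 kb over a level near 350.

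Both VC lists were dense around Sox9 at the authors' cutoff. The Bapx1 VC list held 14 peaks in the span, 6 upstream and 8 downstream of the Sox9 start, which is 7 per Mb against 1.06 per Mb over the chromosomes. The median over 1315 adjoining windows of 2 Mb was 2 peaks, and 2 windows (0.152%) held 14 or more. These windows formed a fixed grid that also covered the DNA around Sox9, so the 2 may include part of the span itself. Of these 14 peaks 2 had a p of at most 1e-10 and 0 a false discovery rate (FDR) of at most 5%. The 0 was fixed by the list, whose lowest FDR is 11.8%. The Sox9 VC list held 18 peaks, 8 upstream and 10 downstream, or 9 per Mb against 1.4 per Mb. The median window held 2, and the fullest of the 1315 held 15 at deposited coordinates. Of the 18 peaks 9 had a p of at most 1e-10 and 7 an FDR of at most 5%. In the Bapx1 3T3 list the density was near the genome's, with 20 peaks or 10 per Mb against 8.74 per Mb, and 521 windows (39.6%) held as many or more. Of the 20 peaks 4 had a p of at most 1e-10 and 19 an FDR of at most 5%, in a list whose highest FDR is 5.26%. No shares of the whole lists at these cutoffs are given, so the counts do not set these peaks apart. These counts are a description, since peaks share libraries and were not tested against one another.

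Peaks were also counted from gene starts. Of 23640 protein-coding genes and lincRNAs, 13 had 14 or more Bapx1 VC peaks within 1 Mb, and 11 of these lay in the span around Sox9 and shared its peaks. The others, Sdk2 and 1700092K14Rik, started beyond the span, at chr11:113928360 and chr11:114059572. Their 1 Mb took in part of the same peaks, so these genes are not separate places. 2610035D17Rik had 17, the most of any gene, while the median gene had 2. Of 20942 genes that could be placed in the coordinates of the Sox9 pair, 11 had 18 or more Sox9 VC peaks, of which 2 were Sox9 itself and its divergent neighbour BC006965. The other 9 lay on chromosomes 1, 3 and 6, on each as neighbouring genes that share peaks. Of these Etnk1, a gene of an ethanolamine kinase, had 19, so that Sox9 was not the fullest place by this count. 2610035D17Rik had 14 Sox9 VC peaks within 1 Mb.

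Cartilage and sclerotome genes served as the comparison. Between 0 Bapx1 VC peaks (Matn1, a cartilage matrilin) and 10 (Comp, a cartilage matrix protein) lay within 1 Mb of 13 such genes, all below the 14 of Sox9. For Col2a1, the main collagen of cartilage, the numbers were 3 Bapx1 VC and 4 Sox9 VC peaks. Sox5, which acts together with Sox9 on cartilage genes, had 5 Bapx1 VC but 16 Sox9 VC peaks, close to the 18 of Sox9. The other genes of this list that could be placed had 1 to 6 Sox9 VC peaks. Acan, the gene of aggrecan, and Sox6 could not be placed in the coordinates of the Sox9 pair. In the Bapx1 3T3 list Sox9 had 20 peaks and the comparison genes 10 (Pax1) to 33 (Sox5 and Runx2), beside a median of 19.

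**Figure D2:**
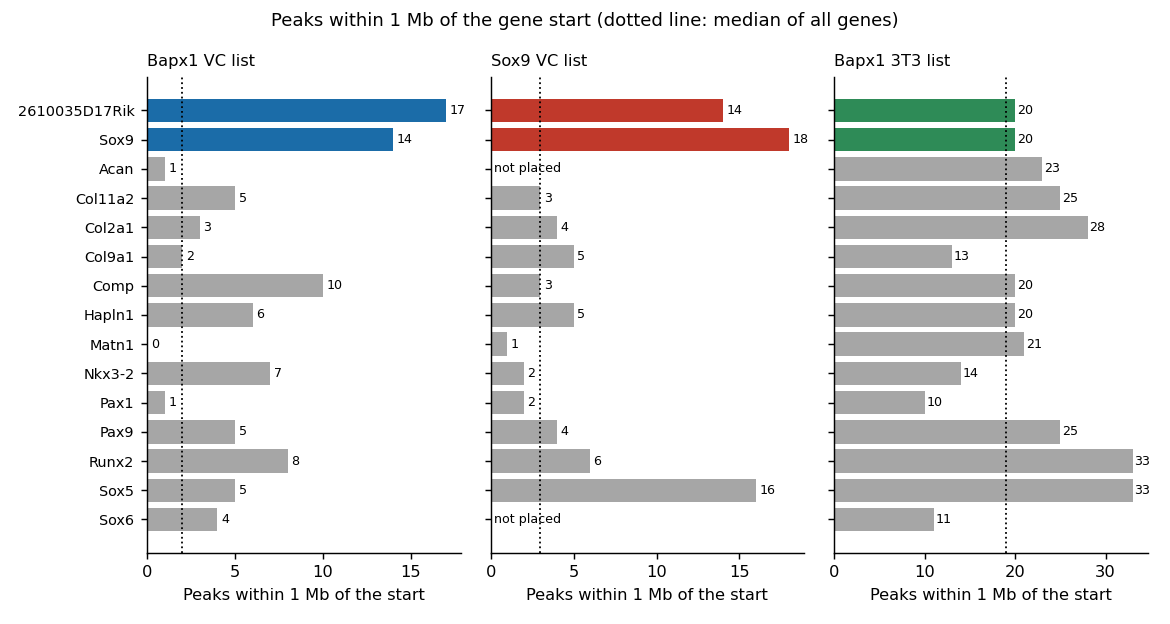
Number of deposited peaks within 1 Mb of the start of each gene (horizontal axis) for the Bapx1 VC, Sox9 VC and Bapx1 3T3 lists, with Sox9 and 2610035D17Rik in colour, 13 cartilage and sclerotome genes in grey and the median of all genes as a dotted line. Sox9 exceeds the median in both VC lists, 14 against 2 and 18 against 3, and is close to it in the Bapx1 3T3 list, 20 against 19.

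None of the 52 summits lay in an exon. Of the Bapx1 VC peaks 5 were intronic and 9 intergenic, of the Sox9 VC peaks 8 and 10, and of the Bapx1 3T3 peaks 7 and 13. Sox9 itself held no summit of the 3 lists. The nearest summits to the Sox9 start were 144 kb away for Bapx1 VC (downstream), 73.7 kb for Sox9 VC (upstream, in an intron of BC006965) and 37.6 kb for Bapx1 3T3 (downstream). The widest stretch without a Bapx1 VC summit was 627 kb and included Sox9, and the widest without a Sox9 VC summit was 664 kb and lay upstream. Neither VC list had a summit in the 409 kb from 483 kb to 73.7 kb upstream.

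Several embryo peaks stood close to the start of 2610035D17Rik. Within 50 kb of that start lay 4 of the 14 Bapx1 VC peaks, 5 of the 18 Sox9 VC peaks and 0 of the 20 Bapx1 3T3 peaks. This distance was chosen after the peaks were seen. Introns of 2610035D17Rik held 2 Bapx1 VC and 3 Sox9 VC peaks. Slc39a11, a gene of the zinc transporter family that spans 405 kb further downstream, held 3 peaks of each VC list and 6 of the Bapx1 3T3 list in its introns.

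**Figure D3:**
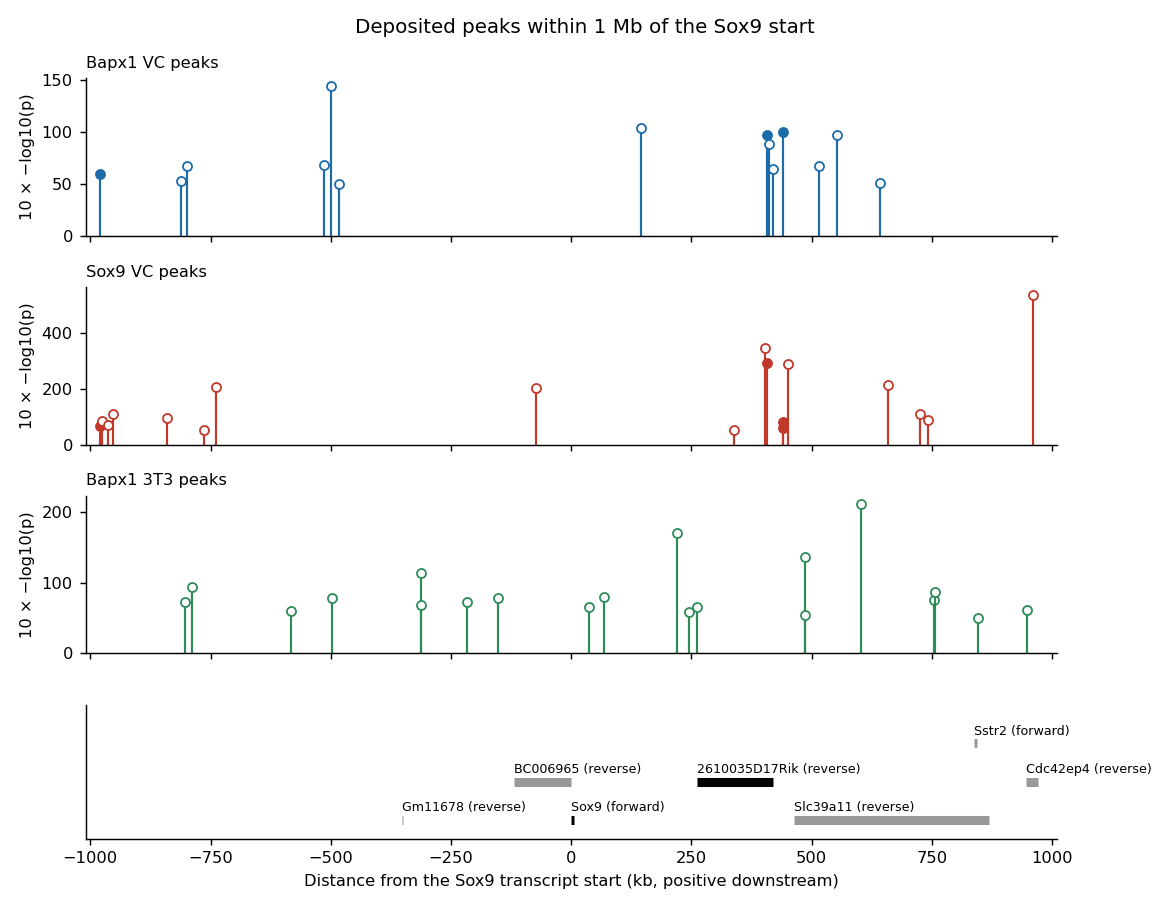
Deposited peaks within 1 Mb of the Sox9 start by distance (horizontal axis, kb) and by the authors' 10 × −log10 (p) (vertical axes, each list on its own scale), with genes below (Sox9 and 2610035D17Rik in black). Filled circles mark peaks that overlap a peak of another list, which stand at 980 kb upstream and at 406 and 439 to 440 kb downstream, and only in the VC lists.

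The authors' values of the peaks differed between the lists, which come from libraries of different depth. The 14 Bapx1 VC peaks held 13 to 40 tags (median 22), with 10 × −log10 (p) of 50.1 to 144 and fold enrichments of 5.09 to 11.7. All 14 had an FDR of 53.5 to 70.1% (median 64.3%), in a list whose lowest is 11.8% and whose median is 61.1%. The 18 Sox9 VC peaks held 9 to 76 tags (median 20), with scores of 51.0 to 536, folds of 8.94 to 41.1 and FDRs of 0 to 100%, 7 of them at or below 5%. The 20 Bapx1 3T3 peaks held 11 to 31 tags (median 14.5), with scores of 50.1 to 211 and FDRs of 0.07 to 5.21%. These values chose the peaks and are given without a test.

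Within 200 bp of their summits the Bapx1 VC peaks held 15 to 30 tags of Bapx1 VC (median 24) and 1 to 9 of S-peptide wildtype VC (median 5). The peak of smallest p stood 499 kb upstream, at chr11:112144365-112144637, with 28 against 3 tags. The only Bapx1 VC peak between Sox9 and 2610035D17Rik stood 144 kb downstream, at chr11:112787611-112787934, with 24 against 5 tags. The remaining intergenic peaks upstream stood at 980, 811, 799, 514 and 483 kb and held 22, 15, 19, 17 and 20 Bapx1 VC tags. The 3 intronic peaks in Slc39a11 stood at 515, 552 and 642 kb downstream and held 26, 28 and 20.

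Within 200 bp of their summits the Sox9 VC peaks held 10 to 70 tags of Sox9 VC (median 21) and 0 to 6 of IgG VC (median 2.5). The strongest stood 959 kb downstream in an intron of Cdc42ep4, a gene of a Cdc42 effector, with 70 against 3 tags and an FDR of 0%. The second, at 402 kb in an intron of 2610035D17Rik, had 49 against 0 tags, which is 17-fold with the control set to 3 tags and has an exact binomial lower 95% limit of 13.3-fold. The peaks at 450 kb, outside 2610035D17Rik with its start at 420 kb, and at 406 kb, inside it, had 37 against 5 and 49 against 4 tags. The peak nearest to Sox9, 73.7 kb upstream, had 36 against 5 tags. The remaining 7 upstream peaks, at 738 to 980 kb, had 10 to 30 Sox9 VC tags, and the other 6 downstream had 14 to 40.

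Which sites carried both factors was asked by overlap of peaks and then by the tags of one pair at the peaks of the other. By overlap of at least 1 bp, 3 of 14 Bapx1 VC peaks (21.4%) met 4 of 18 Sox9 VC peaks (22.2%), against 8.38% of the Bapx1 VC list and 6.82% of the placed Sox9 VC list. Of the Bapx1 3T3 peaks 0 met a peak of either VC list, where 0.776% of the whole list met a Bapx1 VC peak and 0.289% a Sox9 VC peak. Only 2605 of the 2815 Bapx1 VC and 21928 of the 23205 Bapx1 3T3 peaks could be placed in the coordinates of the Sox9 pair. The shares of 8.38% and 0.289% count all peaks of their lists and are thus somewhat low. The nearest approach was at 499 and 498 kb upstream, where a Bapx1 VC and a Bapx1 3T3 peak stood side by side without a shared base.

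For the tags, a two-sided exact binomial test compared ChIP with control tags within 200 bp of each summit, scaled to the tags of each library and adjusted by Benjamini-Hochberg over every peak of the list that could be placed. A peak was called higher at an adjusted p of at most 0.05. Sox9 VC tags were higher at 3 of the 14 Bapx1 VC peaks, where 7.64% of the list was called. Bapx1 VC tags were higher at 3 of the 18 Sox9 VC peaks, where 4.48% was called. The called peaks were the overlapping ones in both directions, apart from 1 of the 4 Sox9 VC peaks. The median ratio, with 1 tag added to each count, was 2.09 for Sox9 VC at the 14 Bapx1 VC peaks against 1.3 over that list, and 1.97 for Bapx1 VC at the 18 Sox9 VC peaks against 1.39. At 11 of 14 and 14 of 18 peaks the ChIP library had the larger scaled count, against 66.1% and 72.2% of the lists. The overlaps and these calls rest on the same tags and are not separate evidence.

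The shared site with the smallest adjusted p in both directions lay in an intron of 2610035D17Rik, 406 kb downstream of the Sox9 start. The Bapx1 VC peak was at chr11:113049545-113049934 and the corrected Sox9 VC peak at chr11:113049481-113050195, which was deposited at 113004257 to 113004971. Their summits were 62 bp apart. At the Bapx1 VC summit the counts were 30 tags in Bapx1 VC, 6 in S-peptide wildtype VC, 45 in Sox9 VC, 3 in IgG VC, 2 in Bapx1 3T3 and 2 in V5 3T3. Both embryo ChIP libraries were above their controls, which for Bapx1 VC was fixed by the call of this peak. The 4 tags of the NIH3T3 pair leave its ratio undetermined (1.4-fold, 95% interval 0.101 to 19.3). Sox9 VC was 15.6-fold over IgG VC (95% interval 5.02 to 78.7, adjusted p = 5.10e-09 by the exact binomial test). At the Sox9 VC summit, Bapx1 VC had 30 tags against 4, or 6.25-fold (2.20 to 24.4, exact binomial adjusted p = 0.00330). The run printed for this site has 1 Sox word, TACAATG, at its far end and 0 Bapx1 words, and a second Sox word, CTTTGTA, lay outside it within the limits of the Bapx1 VC peak.

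The second shared site lay outside the lincRNA, 439 to 440 kb downstream of the Sox9 start and upstream of the 2610035D17Rik start in the sense of that gene. Here 1 Bapx1 VC peak, at chr11:113082838-113083355, covered parts of 2 adjoining Sox9 VC peaks, at chr11:113082609-113083041 and chr11:113083074-113083394. At the Bapx1 VC summit the counts were 30 tags in Bapx1 VC, 9 in S-peptide wildtype VC, 23 in Sox9 VC, 3 in IgG VC, 1 in Bapx1 3T3 and 1 in V5 3T3. Sox9 VC was 7.99-fold over its control (2.42 to 41.6, exact binomial adjusted p = 0.000875). Bapx1 VC was 3.23-fold over its control at the right Sox9 VC summit (31 against 8 tags, 1.45 to 8.13, exact binomial adjusted p = 0.0469) and 2.74-fold at the left one (23 against 7 tags, 1.14 to 7.55, exact binomial adjusted p = 0.169). The first of these calls was lost when tags were counted within the limits of the peak (exact binomial adjusted p = 0.117). The run printed for this site has 1 Bapx1 word, TGAGTG, between the Bapx1 VC summit and the right Sox9 VC summit, and the stretch from the left Sox9 VC summit to the Bapx1 VC summit has 0 words of either set.

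The third shared site stood at the far upstream end, at 980 kb, with the Bapx1 VC peak at chr11:111663058-111663293 and the Sox9 VC peak at chr11:111663241-111663483. The summits were 98 bp apart and the peaks shared 53 bp. A displacement of 45277 bp, the upper end of the range given above, would leave no shared base. At the Bapx1 VC summit the counts were 22 tags in Bapx1 VC, 5 in S-peptide wildtype VC, 10 in Sox9 VC, 0 in IgG VC, 3 in Bapx1 3T3 and 7 in V5 3T3. Sox9 VC was 3.48-fold over IgG VC with the control set to 3 tags, and the exact binomial lower 95% limit was 2.34-fold (adjusted p = 0.0133). At the Sox9 VC summit Bapx1 VC was 5.55-fold over its control with 20 against 3 tags (1.65 to 29.2, exact binomial adjusted p = 0.0387). Both calls were lost when tags were counted within the limits of the peak, with adjusted p = 0.499 and 0.222 by the exact binomial test. A Sox word, CATTGTT as read on the forward strand, stood near the Bapx1 VC summit.

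**Figure D4:**
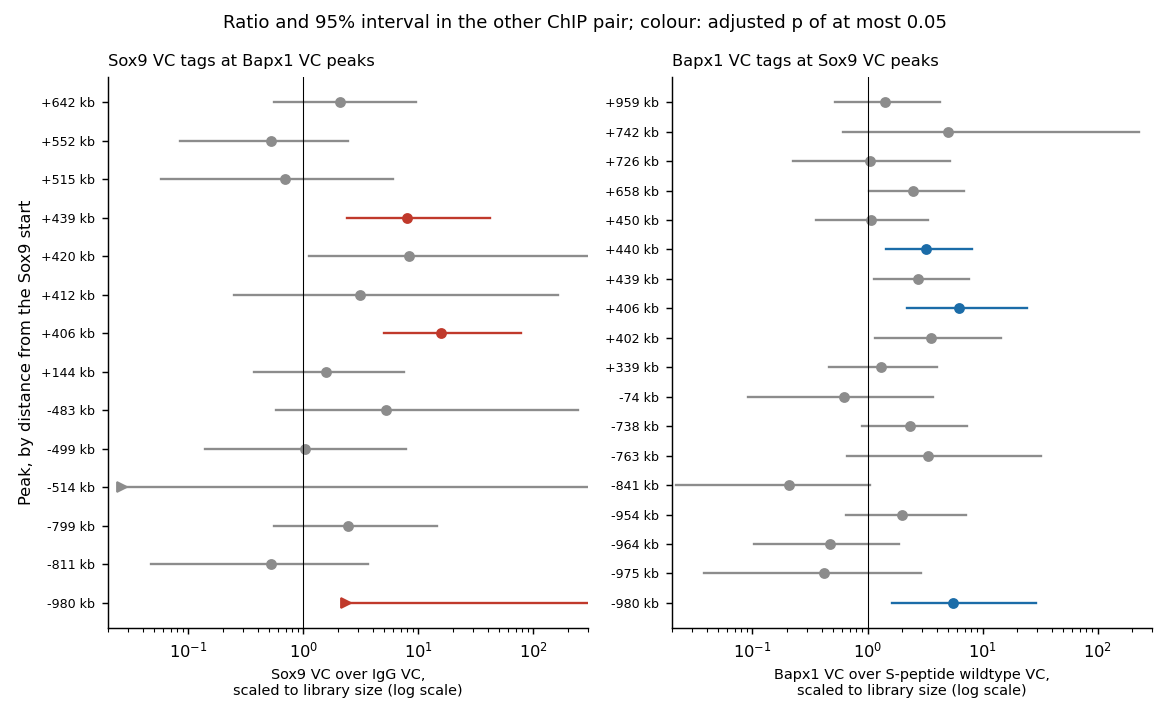
Scaled ratio of ChIP to control tags within 200 bp of each summit in the pair that did not call the peak (log scale, points), with exact binomial 95% intervals (lines), for Sox9 VC tags at Bapx1 VC peaks and Bapx1 VC tags at Sox9 VC peaks. Triangles mark peaks with 0 control tags, drawn at the lower bound, and lines end at the frame. Coloured peaks, at 980 kb upstream and at 406 and 439 to 440 kb downstream, had an adjusted p of at most 0.05.

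Apart from the shared site at 406 kb, 5 Sox9 VC peaks held 36 or more Sox9 VC tags, and Bapx1 VC was called at 0 of them. This number of tags was chosen after the values were seen, and with 4.48% of the list called a count of 0 of 5 says little about these peaks. At the Sox9 VC peak at 402 kb Bapx1 VC was 3.54-fold over its control with 17 against 4 tags (1.15 to 14.5, exact binomial adjusted p = 0.169). At the Sox9 VC peak at 450 kb Bapx1 VC had 9 tags against 7, or 1.07-fold (0.355 to 3.38). At the Sox9 VC peak at 658 kb, in an intron of Slc39a11 with 40 Sox9 VC tags, Bapx1 VC was 2.50-fold over its control with 21 against 7 tags (1.02 to 6.96, exact binomial adjusted p = 0.264). At the strongest Sox9 VC peak, at 959 kb, Bapx1 VC had 12 against 7 tags, or 1.43-fold (0.518 to 4.28). At the Sox9 VC peak nearest to the gene, 73.7 kb upstream, Bapx1 VC had 3 against 4 tags, or 0.625-fold (0.0915 to 3.69). The intervals are wide, so that a difference at these counts may have gone undetected.

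The start of 2610035D17Rik carried a Bapx1 VC peak, at chr11:113062984-113063426, whose summit lay 132 bp from the annotated start on its upstream side. Its counts were 25 tags in Bapx1 VC, 7 in S-peptide wildtype VC, 8 in Sox9 VC, 1 in IgG VC, 7 in Bapx1 3T3 and 6 in V5 3T3. The Sox9 VC excess of 8.34-fold (1.12 to 370) was not called (exact binomial adjusted p = 0.158), while within the limits of the peak it was, with 11 against 1 tags (11.5-fold, 1.67 to 494, exact binomial adjusted p = 0.0394). The printed run around this summit holds no word of either set, and within the limits of the peak stood 1 Sox word, CTTTGTA on the forward strand, 61 bp from the summit. Over 1 kb on either side of the start the excess was small, with 51 against 34 tags for the Bapx1 VC pair (1.25-fold, exact binomial adjusted p = 0.988).

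The intronic site that the study tested, centred 412 kb downstream of the Sox9 start at chr11:113055616-113055715, lay under the Bapx1 VC peak at chr11:113055506-113055830. Within 200 bp of its centre the counts were 24 tags in Bapx1 VC, 4 in S-peptide wildtype VC, 2 in Sox9 VC, 1 in IgG VC, 2 in Bapx1 3T3 and 5 in V5 3T3. Bapx1 VC was 5.0-fold over its control, a value given without a test because the site was taken from the peaks of this library. Sox9 VC was 2.09-fold over IgG VC on 3 tags in all (0.109 to 123), and Bapx1 3T3 was 0.560-fold of V5 3T3 (0.0533 to 3.42). The TGAGTG printed in the oligonucleotide lies within 50 bp of the Bapx1 VC summit, which makes this one of 3 such peaks of the 14.

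**Figure D5:**
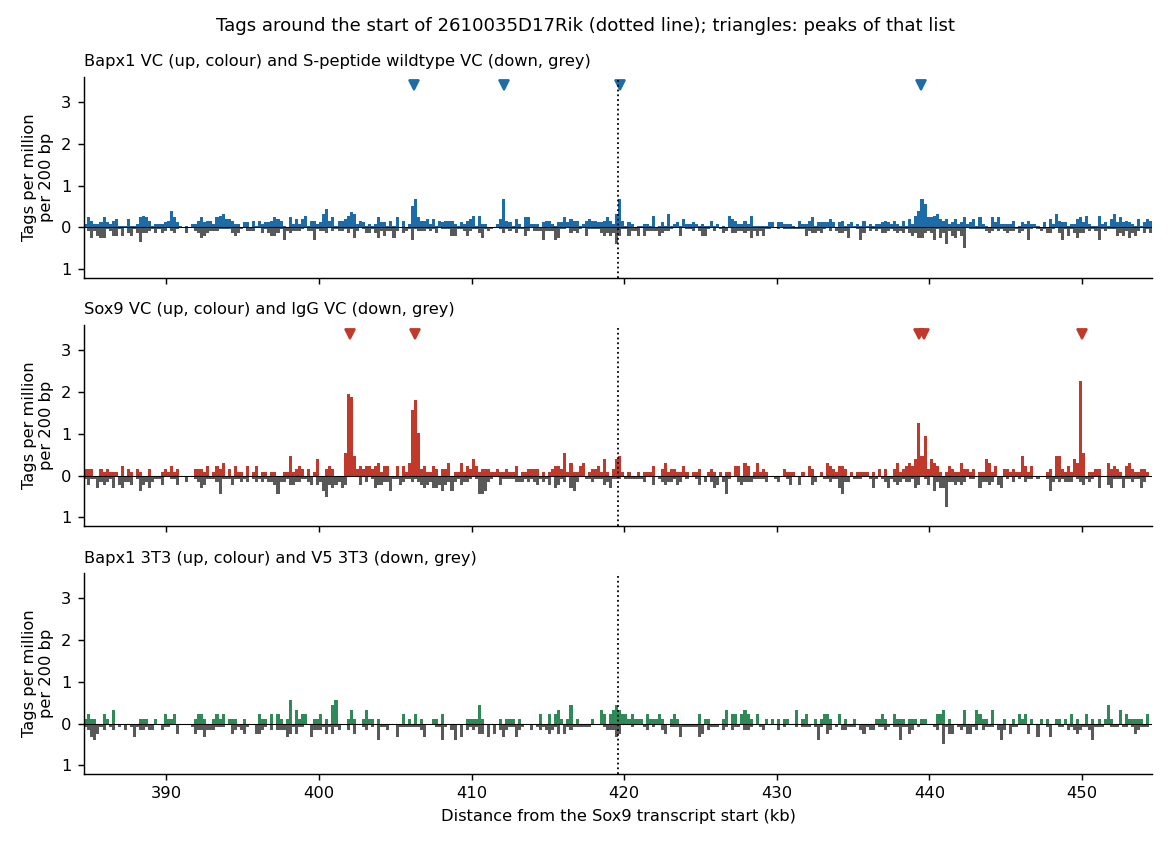
Tags in bins of 200 bp, scaled to 1000000 tags of the library (vertical axis), up to 35 kb on either side of the start of 2610035D17Rik, by distance from the Sox9 start (horizontal axis, kb), with each ChIP library upward in colour and its control downward in grey. The dotted line is the start of 2610035D17Rik and triangles mark summits of the list of that library, 4 for Bapx1 VC, 5 for Sox9 VC and 0 for Bapx1 3T3.

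Tags of the NIH3T3 pair at embryo peaks, and the reverse, gave no call in the span. Bapx1 3T3 tags were called higher at 0 of the 14 Bapx1 VC peaks (3.59% of the list) and 0 of the 18 Sox9 VC peaks (0.462%). Bapx1 VC tags were called higher at 0 of the 20 Bapx1 3T3 peaks (0.103% of the list), and Sox9 VC tags also at 0 (0.0456%). With background shares this low, a count of 0 of 20 says little about these members, and the same holds for the overlaps, since 6.39% of the Bapx1 VC list and 1.94% of the placed Sox9 VC list met a Bapx1 3T3 peak. The median ratios at the 20 peaks were 1.0 for Bapx1 VC and 1.04 for Sox9 VC, against 1.04 and 1.04 over the whole list. For Bapx1 3T3 tags they were 1.09 at the 14 Bapx1 VC peaks, against 1.4 over that list, and 1.4 at the 18 Sox9 VC peaks, against 1.12. All these medians had 1 tag added to each count. Equal counts in ChIP and control give 1.4 in the NIH3T3 pair and 1.04 in the Sox9 pair, and low counts are pulled towards these values. A median of 1.4 is thus no measure of an excess in NIH3T3 cells.

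The Bapx1 3T3 peak with the smallest p stood 602 kb downstream in an intron of Slc39a11, at chr11:113245394-113245779, with 28 tags of Bapx1 3T3 against 3 of V5 3T3. Bapx1 VC had 10 tags there against 7 in its control. The next, 219 kb downstream between Sox9 and 2610035D17Rik at chr11:112862244-112862808, had 28 against 4 tags, with 3 against 6 in the Bapx1 VC pair. The others of the 5 with the smallest p stood at 486 kb (20 against 5 tags), at 312 kb upstream (17 against 4) and at 788 kb upstream (11 against 1). No Bapx1 3T3 summit lay inside Sox9 or 2610035D17Rik.

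Bapx1 words were frequent at the Bapx1 3T3 summits. A Bapx1 word lay within 50 bp of 16 of 20 Bapx1 3T3 summits (80%, against 64.4% of the list) and of 3 of 14 Bapx1 VC summits (21.4%, against 31.3% of the list). Within 100 bp the Bapx1 VC count rose to 7 of 14, against 44.3% of the list, and with the longer words TGAGTGG and TAAGTGG it was 1 of 14. No share over the list is given for the longer words. Of the 18 Sox9 VC summits 3 had a Bapx1 word within 50 bp (16.7%, against 10.4% of the list), close to the share at the Bapx1 VC summits. At 500 bp from the summits the share was 10.7% for the Bapx1 3T3 list, 10.5% for Bapx1 VC and 11.3% for Sox9 VC. The Bapx1 VC summits with such a word stood at 799 and 514 kb upstream and at the tested site. A Sox word lay within 50 bp of 5 of 18 corrected Sox9 VC summits (27.8%, against 34.1% of the list), with 13.6% at 500 bp away. At the deposited coordinates of the Sox9 VC list the share was 15.5%. The 5 summits stood at 954 kb upstream and at 406, 450, 658 and 742 kb downstream. The counts around Sox9 are small and give no order between its sites and the rest of each list.

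The starts of the genes in the span showed little in the embryo libraries. Within 1 kb of the Sox9 start the counts were 48 tags in Bapx1 VC, 35 in S-peptide wildtype VC, 24 in Sox9 VC, 23 in IgG VC, 35 in Bapx1 3T3 and 19 in V5 3T3. Bapx1 VC was 1.14-fold and Sox9 VC 1.09-fold over control, neither called. Bapx1 3T3 was 2.58-fold over V5 3T3 (exact binomial adjusted p = 0.0121), a call that was lost within 500 bp of the start (exact binomial adjusted p = 0.221). Of the 11 genes in the span 0 were called higher in the Bapx1 VC pair (0.237% of all genes), 0 in the Sox9 VC pair (0.158%) and 2 in the Bapx1 3T3 pair (11.8%). The 2 were Sox9 and BC006965, a lincRNA that starts 0.248 kb away in the opposite direction and therefore shares its tags. Gm11678 had 0 tags in all 6 libraries, and the ratios of the other 8 genes in the Bapx1 3T3 pair ran from 1.17 (Sstr2, a somatostatin receptor) to 2.40 (Slc39a11), none called.

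Over the span of 2 Mb the ratios of ChIP to control were near 1, and in the Sox9 pair they lay on opposite sides of 1 upstream and downstream of the Sox9 start. In the span of 2 Mb the scaled ratio was 1.04 for Bapx1 VC (95% interval 1.02 to 1.06), 0.992 for Sox9 VC (0.969 to 1.01) and 0.920 for Bapx1 3T3 (0.895 to 0.945). For Sox9 VC it was 1.13 in the upstream 1 Mb (1.09 to 1.17) and 0.902 in the downstream 1 Mb (0.875 to 0.929), while for Bapx1 VC it was 1.04 in both and for Bapx1 3T3 0.916 and 0.924. Over the body of Sox9 it was 1.02 (0.763 to 1.36) for Bapx1 VC, and higher for Sox9 VC at 1.52 (1.03 to 2.26) and for Bapx1 3T3 at 1.67 (1.08 to 2.57). Over the body of 2610035D17Rik it was 1.10 (1.03 to 1.17), 0.914 (0.848 to 0.984) and 0.908 (0.827 to 0.997) for the 3 pairs in the same order. These intervals were not adjusted for the number of regions and pairs, and no share over all gene bodies is given. Those over Sox9 rest on 67 against 46 tags for Sox9 VC and 50 against 42 for Bapx1 3T3. The densities of the controls in the downstream 1 Mb were 1.4, 1.80 and 1.49 times their genome means for S-peptide wildtype VC, IgG VC and V5 3T3, and in the upstream 1 Mb 1.26, 1.21 and 1.32 times. The part that this level has in the peaks was not tested.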

How the data were processed

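Single-end ChIP DNA was sequenced on an Illumina GAII after 14 cycles of amplification, with 1 library for each of 6 conditions. The authors deposited the positions of mapped tags of 35 bp, which the labels place on mm9 and which carry no normalization, and for each ChIP library a list of peaks called with MACS against its control at p = 1e-05. Each deposited peak comes with its tag count, a score of 10 × −log10 (p), a fold enrichment, which is a ratio over local background, and an FDR in percent that the authors' MACS run derived by swapping ChIP and control. The deposited libraries held 9124697 to 24855032 tags. Repeats of a position and strand, 2.36% of Bapx1 3T3 and 6.53% of V5 3T3, were removed. The libraries of the VC pairs held 0% repeats as deposited.

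Tags were counted by their middle within 200 bp of summits and within 1 kb of the 5-prime most starts of GENCODE vM1 genes (mm9), and divided by each library's total over the autosomes and both sex chromosomes. Two-sided exact binomial tests were adjusted by Benjamini-Hochberg over all peaks or genes (scipy 1.17.1). Exact binomial (Clopper-Pearson) intervals at 95% cover counting error only. The displacement of the Sox9 pair was measured against the Bapx1 VC pair in bins of 50 bp. It was clear in 93.5% of 5030 windows of 500 kb, and 94.4% of these were displaced by over 1 kb. Positions near Sox9 were moved by 1 value, and those elsewhere by the value of their window. Motif words were searched in mm9. The shift detection was tested on S-peptide wildtype VC tags moved by known amounts against Bapx1 VC tags. The binomial test was tested on simulated data.

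The members, gene lists and tests were chosen with earlier results of these data known. Named genes were Sox9, 2610035D17Rik, all protein-coding genes and lincRNAs starting in the span, and 13 cartilage and sclerotome genes. Named peaks were the VC peaks of the span and, from the Bapx1 3T3 list, the 5 of smallest p and any that overlapped another list or lay in either gene.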

Additional observations from a re-analysis of the deposited data

How the results depend on the processing

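Stricter peak cutoffs and a narrower span gave lower counts in all 3 lists. At p of at most 1e-10 there were 2 Bapx1 VC, 9 Sox9 VC and 4 Bapx1 3T3 peaks, and within 500 kb of the Sox9 start 7, 7 and 12. At an FDR of at most 5% there were 0 Bapx1 VC, 7 Sox9 VC and 19 of 20 Bapx1 3T3 peaks. The first count was fixed by its list, whose lowest FDR is 11.8%. The last was nearly so, since no FDR of its list exceeds 5.26%. At the deposited coordinates of the Sox9 pair, 0 peaks overlapped (an alternative chosen after seeing the data) and 0 were called in either direction between the VC pairs. The span held 17 Sox9 VC peaks at deposited coordinates and 15 with displacements per window of 200 kb, since 3 lay in the window without a clear one. Sox9 VC tags within the limits of the peak were called higher at 3 Bapx1 VC peaks, with the start of 2610035D17Rik in place of the site at 980 kb upstream, and at 2 at an adjusted p of at most 0.01. Bapx1 VC tags were called higher at 1 Sox9 VC peak both within the limits of the peak and at an adjusted p of at most 0.01, and this was the site at 406 kb. With summits within 100 bp, 2 pairs of peaks were shared. A Bapx1 word lay near 7 of 14 Bapx1 VC summits within 100 bp, and the longer words TGAGTGG and TAAGTGG near 1 of 14 and, for Bapx1 3T3, 7 of 20. The counts of the longer words have no share over their lists beside them. Within 500 bp of gene starts 0 were called in the Bapx1 3T3 pair. No shares called over the lists or over all genes are given for these other limits, cutoffs and distances. The counts called there thus do not set the members apart. Scaling to bins of 10 kb without a peak changed no call of the members. Keeping repeated tags could change nothing in the VC pairs, whose libraries held 0% repeats. In the Bapx1 3T3 pair it changed no call. No paired analysis was possible because each condition has 1 library. Counts of 1 to 9 control tags within 200 bp of the Bapx1 VC summits limit the precision of each ratio.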
